A study of Mus musculus with 36 samples.

Results

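Skeletal muscle of mice with 1 working copy of the growth regulator Myc (Myc+/-) was compared between 24 and 5 months of age. The comparison took the 6 arrays titled as Myc heterozygous muscle at these ages, out of 36 arrays in the series, and every probe set with 1 gene symbol, which was 21789 of 35556. The series measured liver, skeletal muscle and adipose tissue of Myc+/- and wild type mice, all male, of the C57Bl/6 strain, at both ages, on Affymetrix Mouse Gene 1.0 ST arrays. The question, by its title, is how less Myc affects lifespan and health in mice. The Myc+/- muscle groups were 1 pool of RNA from 5 mice at 5 months and 1 pool from 8 mice at 24 months, and wild type muscle, used here for comparison, came from 6 and 5 mice. Each pool was hybridised to 3 technical arrays, so a group was 1 sample of mixed RNA. The SD over its 3 arrays (n = 3) is array-to-array error and holds no spread between mice. Both genotypes carried no other allele and received no treatment that the labels name. The labels do not say which muscle was taken, which part of Myc was inactivated, or which of their homogenization methods each sample had.

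Skeletal muscle is built of fast fibres, which contract quickly and burn sugar, and slow fibres, which resist fatigue and rely on mitochondria, and each type has its own set of myosins and troponins. Muscle of old animals is known for loss of fibres and of nerve contacts, a changed fibre mix, fat between the fibres, immune cells and lower mitochondrial capacity. Myc encodes a transcription factor that drives ribosome production and cell growth.

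The arrays were alike in scale, with medians from 6.95 to 7.14 (log2) over the series. Each Myc+/- muscle array correlated with the others of its pool at 0.995 to 0.997, and the 2 pools correlated at 0.969. The defining markers of skeletal muscle were present in both pools: the 15 listed genes averaged 13.92 to 14.00 on the 5-month arrays and 13.94 to 14.00 on the 24-month arrays, and 0 of them differed by 1.5-fold. Myc read 8.51, 8.35 and 8.57 on the 5-month arrays and 8.38, 8.27 and 8.47 on the 24-month arrays, and the arrays overlapped. Its age difference was -0.10 in Myc+/- muscle and 0.24 in wild type, where the pools stood at 8.96 and 9.20, so both Myc+/- pools lay below both wild type pools. Pvt1, a noncoding gene next to Myc, read higher at 24 months in both genotypes, by 0.64 in Myc+/- and by 0.49 in wild type, for its brighter probe set, while its other probe set differed by -0.24 in Myc+/-.

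A probe set counted as higher or lower when the means of the 3 arrays differed by at least 1.5-fold between ages, and 13073 probe sets with a muscle mean above the 40th percentile were kept for such counts. Of these, 578 (4.42%) read higher at 24 months in Myc+/- muscle and 514 (3.93%) read lower, covering 543 and 426 gene symbols. The arrays of the pools did not overlap for 1088 of these 1092 probe sets, and for 56.6% of all kept ones. Without the filter, which adds the dim probe sets to the kept ones, 721 of 21789 (3.31%) read higher and 547 (2.51%) lower. Both shares were smaller than among the kept probe sets alone. At 2-fold the counts were 119 and 99, and at 4-fold 30 and 5. The median difference over the kept probe sets was 0.02, and without the filter -0.01. Gene lists below are counted over all their matched members, dim ones included, so their counts are read against 3.31% higher and 2.51% lower in Myc+/- muscle (4.51% and 3.43% in wild type). Counts of differences above or below 0 also run over all matched members. The share above 0 was counted for the kept probe sets alone (52.5%), and the median without the filter was -0.01. Pool-level counts run over kept members and are read against 23.5% and 19%. The filter used the mean over both ages, so a gene dim at 1 age could be kept through its level at the other. Of 886 list entries in 41 lists 801 were matched. With 1 pool per age these counts describe 2 mixtures of RNA and carry no test across mice. The one repeat of the age comparison from other mice was the wild type pair. A limma fit to the 12 pool means of the series gave the age effect in muscle averaged over both genotypes, and its adjusted p, from Benjamini-Hochberg, is quoted below as the pool-level p. Its error, on 3 residual degrees of freedom, came from how unlike the age differences of both genotypes were within each tissue. Single mice were not measured, so a small pool-level p does not give the spread between mice. In that fit 3073 kept probe sets (23.5%) rose with age and 2487 (19%) fell. "Rose" and "fell" are used below for genes past that threshold, and "read higher" or "lower" for the difference between the Myc+/- pools alone.

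**Figure D1:**
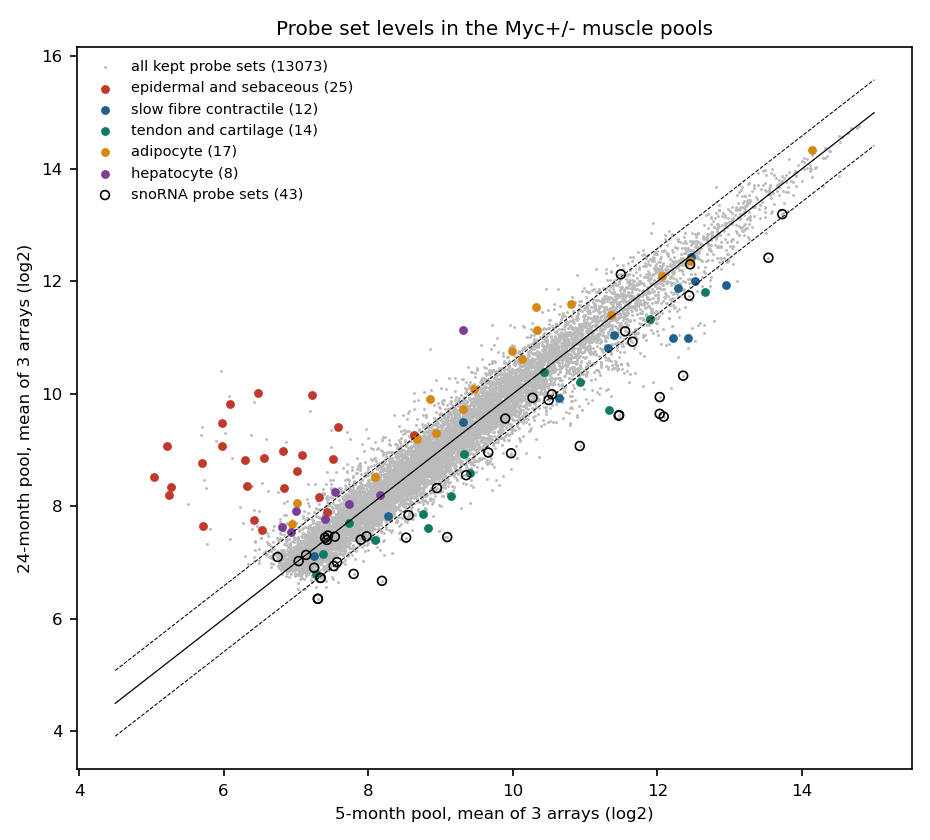
Mean log2 level of each kept probe set in the 5-month (horizontal) and 24-month (vertical) Myc+/- muscle pools, with members of 5 gene lists and the snoRNA probe sets marked. The solid line is equality and the dashed lines are 1.5-fold; most epidermal genes lie above the upper dashed line at low 5-month levels, and 24 of the 43 snoRNA probe sets lie below the lower one.

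Most of the genes furthest up at 24 months are known from skin, beside antibody genes described further on. Krt5, a keratin of basal epidermal cells, read 5.98, 5.98 and 5.96 at 5 months and 9.56, 9.17 and 9.71 at 24 months. All 3 old arrays were far above all young ones, a difference of 3.50 or 11.3-fold. Krt77, a keratin of sweat gland ducts, differed by 3.53, Lor, which encodes loricrin of the cornified layer, by 3.10, and Dsc3, a desmosomal cadherin, by 2.95. The late cornified envelope genes Lce1a1 and Lce1c differed by 3.86 and 3.58. Elovl4, which makes the very long chain fatty acids of the skin barrier, read 6.11, 6.19 and 5.96 at 5 months and 9.94, 9.74 and 9.76 at 24 months, a 13.2-fold difference. Dapl1 (3.89), Crct1 (3.71), Serpina3b (3.49), Ly6g6c (3.44), Defb6, a beta-defensin (3.07), and Scd3, a desaturase of sebaceous glands (3.07), completed the non-immunoglobulin genes among the 15 furthest up.

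Counted over a list of 31 epidermal and sebaceous genes, 27 read higher by 1.5-fold and 0 lower, with a median of 2.05. Its mean level ran from 6.31 to 6.34 on the 5-month arrays and from 8.26 to 8.36 on the 24-month arrays. The list supplied 14 of the 30 probe sets past 4-fold, while 25 of its genes were kept among 13073 probe sets. Its members were chosen with earlier results of these data known, so that share is no support of its own. Wild type arrays went from between 7.07 and 7.20 to between 8.58 and 8.69, so the list stood lower in Myc+/- than in wild type muscle at both ages. In the pool-level fit 25 of the 25 kept members rose, for instance Krt5 by 3.05 ± 0.21 (SE, limma, adjusted p = 0.00015) and Krt14, the partner of Krt5, by 1.96 ± 0.08 (adjusted p = 4.15e-05). The filter used the mean over both ages, so members dim at 5 months, such as Krt5 in Myc+/- muscle, could be kept through their 24-month levels. The count of kept members that rose is therefore no support of its own. Krt5 stood at 6.24 and 5.95 in the 5- and 24-month Myc+/- livers and at 5.97 and 6.34 in Myc+/- adipose tissue. Not all skin genes were level there: in adipose tissue Ly6d, a surface protein of keratinocytes and B cells, differed by 3.02, Dapl1 by 2.15 and Serpina3b by -1.68. Of 10 genes of the keratinised hair follicle 1 read higher, the dim Lgr5 (0.61), and the hair keratin Krt35 differed by 0.08. How far this skin signal enters other genes of the muscle pools was not tested. In a bulk sample more cells of a type and more RNA per cell cannot be told apart, here and in all lists below.

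**Figure D2:**
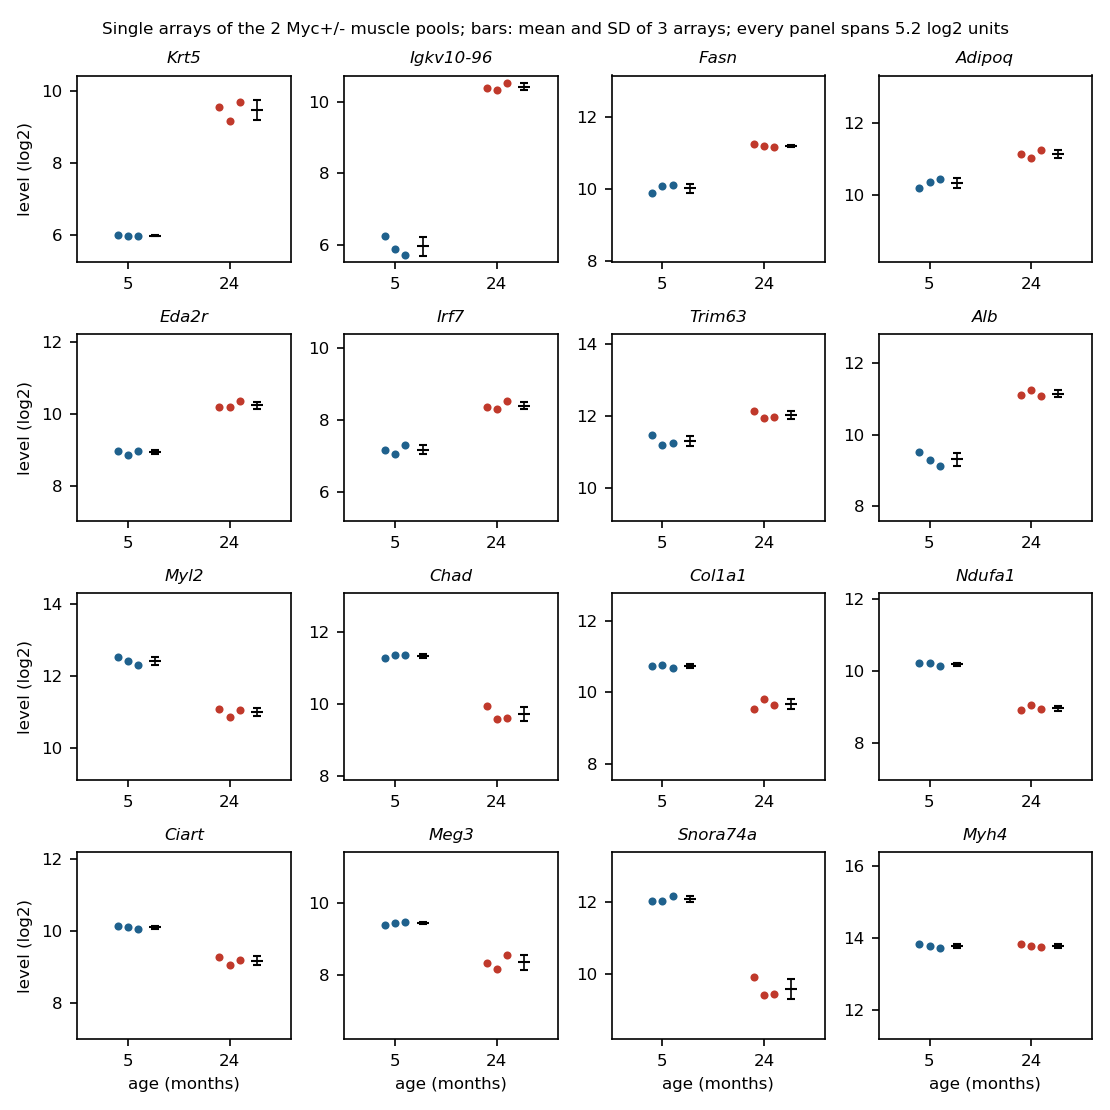
Level on each array (log2, points) with the mean and SD of 3 arrays (bars) for 16 genes in the 5- and 24-month Myc+/- muscle pools; all panels span the same range. The arrays of the ages separate in every panel except that of the fast myosin Myh4, whose difference was -0.01.

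Antibody genes also read higher. Igkv10-96, a variable segment of the kappa light chain, read 6.27, 5.90 and 5.74 at 5 months and 10.39, 10.33 and 10.52 at 24 months, the largest difference of the comparison (4.44, or 21.8-fold). Igha, the constant region of IgA, differed by 3.26 (2.15 in wild type), and Jchain, which joins the units of IgA and IgM, by 1.88. Kappa variable segments are near copies of each other, so reads on a single segment are uncertain. Of 18 lymphocyte and plasma cell genes 7 read higher and 0 lower, and all 18 had a difference above 0 (median 0.49), among them Ighm, the IgM heavy chain (1.24, and 0.71 for the lowest of its 3 probe sets), and Cd79b, a B cell receptor subunit (1.22). Cd8a and Gzma, of cytotoxic lymphocytes, differed by 0.16 and 0.03 with overlapping arrays. All 7 kept members of the list rose in the pool-level fit, Jchain by 1.82 ± 0.07 (limma, adjusted p = 3.94e-05). The other 11 lay below the filter, which used the mean over both ages and so favoured members high at 24 months. This count is therefore no support of its own. Adipose tissue and liver of Myc+/- mice differed by 3.40 and 1.09 in Igha.

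Slow fibre genes read lower and fast fibre genes did not differ by 1.5-fold. Myl2, the slow regulatory light chain, read 12.54, 12.42 and 12.32 at 5 months and 11.08, 10.87 and 11.05 at 24 months. The old arrays lay below all young arrays, a 2.69-fold lower level. Tnnc1, the slow troponin C, read 2.33-fold lower, Myl3, the slow essential light chain, 2.01-fold and Tnnt1, the slow troponin T, 1.63-fold. Tnni1, the slow troponin I (-0.50), Tpm3 (-0.51) and Myh7, the slow myosin heavy chain (-0.36), were under 1.5-fold although their arrays did not overlap. The 4 probe sets of Tpm3 ran from -0.51 to 0.43 in Myc+/- muscle, so its direction depends on the probe set. Atp2a2, the slow calcium pump, differed by -0.04 with overlapping arrays. Of the 12 slow genes 4 read lower and 0 higher (median -0.47), and 10 fell in the pool-level fit, Myl2 by 1.73 ± 0.14 (limma, adjusted p = 0.000285).

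The difference was smaller in Myc+/- than in wild type muscle for 11 of these 12 genes, against 56% of all probe sets. The list median was -1.12 in wild type, and Tnnc1 differed by -1.22 in Myc+/- and by -2.05 in wild type. On the 24-month arrays the list averaged 10.54 to 10.55 in Myc+/- and 10.13 to 10.17 in wild type. Young arrays ran from 11.05 to 11.16 and from 11.23 to 11.30. Among the 16 fast genes Myh4, the fastest adult myosin, read 13.84, 13.77 and 13.72 at 5 months and 13.82, 13.76 and 13.73 at 24 months. Myh1 (0.19) and Myh2 (-0.13), the other fast myosins, and Actn3, which anchors actin in fast fibres (0.11), were also within 1.5-fold, as was the whole list (0 higher, 0 lower, median 0.04).

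Genes of tendon and cartilage read lower together with the slow fibre genes. Chad, the cartilage matrix protein chondroadherin, read 11.28, 11.36 and 11.37 at 5 months and 9.93, 9.59 and 9.62 at 24 months, a 3.07-fold lower level, against a difference of -3.08 (log2) in wild type. Kera, or keratocan (-1.20), Comp, which organises collagen fibrils (-0.96), Scx, the transcription factor of tendon cells (-0.89), Fmod, or fibromodulin (-0.84), and Tnmd, or tenomodulin (-0.82), also passed 1.5-fold. In all, 8 of 16 read lower and 0 higher (median -0.63, and -0.91 in wild type), and 12 of the 14 kept members fell in the pool-level fit. The list averaged 9.08 to 9.15 on the young arrays and 8.52 to 8.53 on the old ones. Which share of a muscle piece was tendon was not tested.

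Matrix genes ran the same way. Col1a1, the main chain of fibrous collagen, read 10.74, 10.78 and 10.68 at 5 months and 9.54, 9.82 and 9.66 at 24 months, 2.08-fold lower. Col3a1 (-0.91), Col1a2 (-0.82) and Col12a1 (-0.61), which also make fibrillar collagens or coat them, passed the fold too. Of 35 collagen and matrix genes these 4 read lower, 0 read higher, and 31 had a difference below 0 (median -0.27). Dcn (0.05), a small proteoglycan that binds collagen, and Lox, which crosslinks it (0.03), were within 1.5-fold. Across both genotypes 15 of 34 kept members fell and 1 rose, with Col1a1 falling by 1.30 ± 0.14 (limma, adjusted p = 0.000597). Of 10 fibroblast genes 2 read lower, Mfap5 (-1.09), a microfibril protein, and Clec3b (-0.68).

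**Figure D3:**
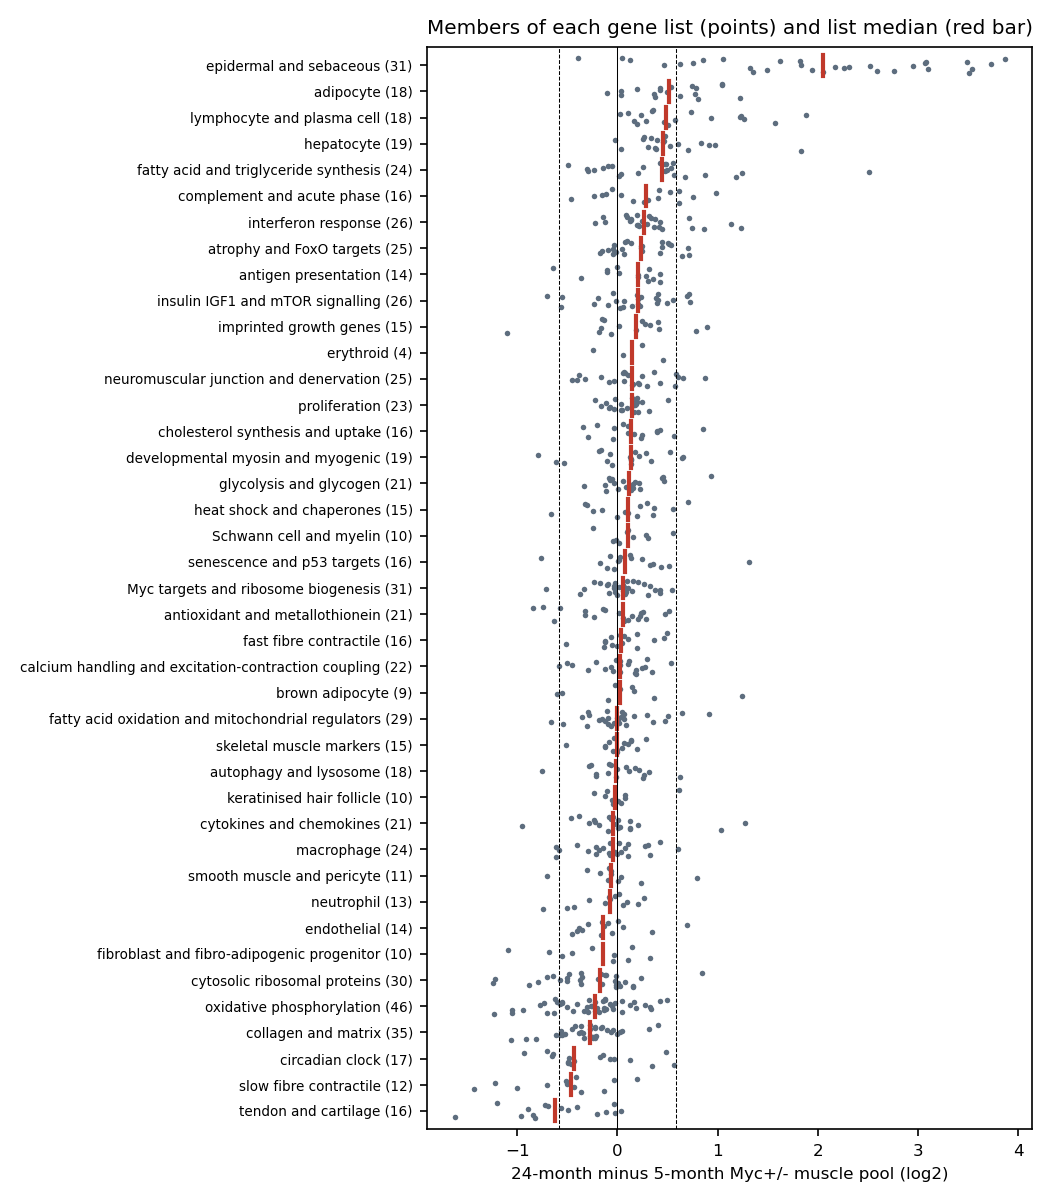
Difference between the 24- and 5-month Myc+/- muscle pools (log2, horizontal) for every matched member (point) of each gene list (rows, number of genes in parentheses), with the list median (red bar). Dashed lines are 1.5-fold; epidermal genes stand furthest to the right with a median of 2.05 and tendon genes furthest to the left with -0.63.

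Genes of muscle wasting read moderately higher. Trim63, or MuRF1, a ubiquitin ligase that tags muscle proteins for degradation, read 11.46, 11.19 and 11.25 at 5 months and 12.15, 11.94 and 11.97 at 24 months, 1.65-fold higher without overlap. Its difference in wild type was 0.06, and the difference of 0.65 between genotypes exceeded array-to-array error (limma on arrays, adjusted p = 0.0124). Fbxo32, or atrogin-1, another such ligase, differed by 0.64 and by 0.55 in wild type, and Gabarapl1, which builds autophagosomes, by 0.71 and 0.31. Of the 25 atrophy and FoxO target genes these 3 read higher and 0 lower (median 0.23, and 0.20 in wild type). The regulators themselves were within 1.5-fold, with Foxo1 at -0.18, Foxo3 at -0.01 and Mstn, the myostatin that limits muscle growth, at -0.15. In the pool-level fit 12 of 25 rose and 0 fell; Fbxo32 rose by 0.60 ± 0.07 (adjusted p = 0.000789), while Trim63 missed with 0.39 ± 0.15 (adjusted p = 0.0672).

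Genes that rise when muscle loses its nerve gave a mixed picture. Gadd45a, a stress gene of denervated fibres, read 8.51, 8.49 and 8.47 at 5 months and 9.48, 9.36 and 9.26 at 24 months, 1.83-fold higher. Runx1, a transcription factor that guards denervated fibres, read 1.58-fold higher and Hdac4, a deacetylase of the same response, 1.53-fold, though the other Hdac4 probe set differed by 0.27 (log2). These were the 3 of 25 that passed the fold, with 0 lower and a median of 0.15 (-0.04 in wild type). Chrna1, the alpha subunit common to adult and fetal acetylcholine receptors, differed by 0.30, the fetal Chrng by 0.22 and the adult Chrne by 0.16, the last 2 with overlapping arrays, and Musk, the kinase that clusters the receptor, by 0.42. Myog (-0.33) and Ncam1 (-0.45), which denervation is also known to raise, read lower by less than the fold, and both fell in the pool-level fit (limma, adjusted p = 0.0337 and 0.00233). Myh3, the embryonic myosin, differed by 0.14 with overlapping arrays. Among 19 developmental and myogenic genes Actc1, the cardiac actin of immature fibres (0.66), and Myl4, the embryonic light chain (0.64), read higher, and Chodl (-0.79) and Myod1, the myogenic factor (-0.61), lower.

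Lipid synthesis genes read higher, and adipocyte genes moved with them. Elovl6, which lengthens the product of fatty acid synthase, read 7.06, 7.30 and 7.22 at 5 months and 9.85, 9.42 and 9.83 at 24 months, a 5.69-fold difference. Fasn, the synthase itself, read 9.87, 10.07 and 10.10 and then 11.23, 11.19 and 11.16, a 2.27-fold difference. Scd1, which desaturates fatty acids, differed by 0.87 and Acaca, which supplies malonyl-CoA, by 0.67, whereas their regulator Srebf1 (-0.29) and Dgat2, which completes triglycerides (-0.30), had small differences of the other sign. Of the 24 listed genes that build fatty acids and triglycerides 5 read higher and 0 lower (median 0.45). In wild type 13 read higher (median 0.69), and in the pool-level fit 13 of 21 kept members rose and 2 fell, Elovl6 rising by 2.25 ± 0.28 (adjusted p = 0.0011).

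Of 18 adipocyte genes 8 read higher and 0 lower in Myc+/- muscle (median 0.52), and 15 in wild type (median 1.28). Adipoq, the adipocyte hormone adiponectin, read 10.20, 10.36 and 10.46 at 5 months and 11.13, 11.02 and 11.26 at 24 months, 1.74-fold higher, against a difference of 2.04 (log2) in wild type. Retn, or resistin (1.23), Rbp4, a retinol carrier (1.05), and Tshr, the thyrotropin receptor (1.04), stood furthest up. Fabp4 (-0.10) and Car3 (0.19), among the most abundant transcripts of fat cells, were within the fold. Car3 is not particular to fat cells, as it stood at 14.64 in adipose tissue and 14.23 in liver of 5-month Myc+/- mice. The list averaged 9.63 to 9.80 on the young and 10.26 to 10.30 on the old Myc+/- arrays, and 9.83 to 9.85 and then 11.10 to 11.13 in wild type. Size of difference was smaller in Myc+/- than in wild type for 17 of 18 adipocyte genes and 18 of 24 lipid synthesis genes. How much of the lipid synthesis signal came from fat cells was not tested. Elovl6, Scd1 and the sebaceous Scd3 are also active in skin, whose genes moved as given above.

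Interferon-induced genes read higher in both genotypes. These genes are switched on when interferon activates factors that bind a short promoter element, the ISRE, here searched as GAAA, NN and GAAA in direct succession on both strands. It occurs in 3.44% of 32851 promoter windows of 300 bases, and in at least 1 window of 3.99% of 27025 genes, against 12 of the 19 kept interferon genes that had a window. The windows reach from 250 bases before to 50 after the start site, from RefSeq on GRCm38.p6. The bases before the start are shown for 3 genes that passed the fold, with each match in capitals, to show where the element lies in them.
Ifit1 (chr19:34640639-34640888, plus strand): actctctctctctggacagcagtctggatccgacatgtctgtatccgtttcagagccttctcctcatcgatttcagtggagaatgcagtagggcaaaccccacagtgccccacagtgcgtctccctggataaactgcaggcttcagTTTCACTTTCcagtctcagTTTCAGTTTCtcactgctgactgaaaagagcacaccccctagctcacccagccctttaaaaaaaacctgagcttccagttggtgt
Ifit3 (chr19:34583279-34583528, plus strand): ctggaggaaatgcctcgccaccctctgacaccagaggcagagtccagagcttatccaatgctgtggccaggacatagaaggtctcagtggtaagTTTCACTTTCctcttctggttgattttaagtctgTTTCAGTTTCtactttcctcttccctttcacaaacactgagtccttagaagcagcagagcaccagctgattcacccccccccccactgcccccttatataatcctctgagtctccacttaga
Rsad2 (chr12:26456453-26456702, minus strand): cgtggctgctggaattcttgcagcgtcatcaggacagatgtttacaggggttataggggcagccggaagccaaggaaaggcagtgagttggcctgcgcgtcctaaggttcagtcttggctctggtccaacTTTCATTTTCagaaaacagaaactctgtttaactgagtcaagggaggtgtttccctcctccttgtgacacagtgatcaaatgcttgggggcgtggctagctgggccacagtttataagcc
Matches began 104 and 85 bases before the start site in Ifit1, 156 and 122 in Ifit3 and 120 in Rsad2. Gbp7 holds 1 match and Irf7 has none in its window. A match describes letters and not a bound site.

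Rsad2, or viperin, which blocks viral replication, read 7.42, 7.47 and 6.92 at 5 months and 8.57, 8.27 and 8.37 at 24 months, 2.19-fold higher. Irf7, the factor that amplifies the interferon response, read 7.18, 7.04 and 7.30 and then 8.37, 8.32 and 8.52, 2.35-fold higher. The RNA-binding Ifit1 (0.86) and Ifit3 (0.74) and the guanylate-binding Gbp7 (0.72) also passed, giving 5 of 26 higher and 0 lower, with 23 differences above 0. The median was 0.27 in Myc+/- and 0.53 in wild type, where 12 read higher, and the size of difference was smaller in Myc+/- for 20 of 26. Across both genotypes 19 of 23 kept members rose and 0 fell, Irf7 by 1.52 ± 0.14 (adjusted p = 0.000379).

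Macrophage genes did not move with the interferon genes. Of 24 macrophage markers 1 read higher (Cd53, a leukocyte tetraspanin, 0.60) and 2 lower (Cd68, a lysosomal glycoprotein, -0.62, and Fcer1g, a receptor chain, -0.61), with a median of -0.05 against 0.40 in wild type. Adgre1, which encodes F4/80, differed by 0.10 and Mrc1, the mannose receptor, by -0.07, both with overlapping arrays, against 0.58 and 0.49 in wild type. Mean list levels were 8.83 to 8.99 on young and 8.83 to 8.91 on old Myc+/- arrays, and 8.94 to 8.98 and 9.30 to 9.39 in wild type. Chemokines differed one by one. Cxcl13, which attracts B cells, read 8.12, 8.45 and 8.49 at 5 months and 9.82, 9.41 and 9.63 at 24 months, 2.41-fold higher, and Ccl5, which attracts T cells, differed by 1.04. Ccl11, or eotaxin, read 1.93-fold lower, and the same difference of -0.95 was measured in wild type. Ccl8, a monocyte attractant, differed by 0.01 in Myc+/- and by 2.07 in wild type.

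Those 3 were the members of the 21 cytokines and chemokines past the fold, and the list had 2 higher and 1 lower. The classical inflammatory cytokines Il6 (-0.24), Il1b (0.00) and Tnf (-0.06) had overlapping arrays. Among 16 complement and acute phase genes 4 read higher and 0 lower: Orm1 (0.99), C6 (0.75), a unit of the membrane attack complex, Serpina3n (0.62) and C4b (0.62). These are also abundant in liver, where Orm1 stood at 13.82 and 13.72 in the Myc+/- mice, and 6 of 19 hepatocyte genes read higher in the same muscle pools (median 0.46). In wild type muscle 7 of the 16 complement genes read higher while 18 of the 19 hepatocyte genes read lower. The part of liver transcripts in this group was not tested. Of 14 genes of antigen presentation 0 read higher and 1 lower, the immunoproteasome subunit Psmb10 (-0.64). Of 13 neutrophil genes 0 read higher and 1 lower (S100a8, -0.74), most of them dim.

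Of 17 circadian clock genes 13 had a difference below 0. The clock is a feedback loop in which CLOCK and BMAL1 bind E-boxes of their repressors and output genes. The E-box searched was CACGTG, which occurs in 7.15% of windows, in 8.09% of genes with a window and in 5 of 15 kept clock genes with a window (Per1, Cry1, Tef, Bhlhe41 and Ciart). Nfil3 and Hlf, which passed the fold as given below, have no E-box in their windows. Promoters of the 2 genes with an E-box that passed the fold are shown as above, from RefSeq on GRCm38.p6, with E-boxes in capitals.
Ciart (chr3:95882229-95882478, minus strand): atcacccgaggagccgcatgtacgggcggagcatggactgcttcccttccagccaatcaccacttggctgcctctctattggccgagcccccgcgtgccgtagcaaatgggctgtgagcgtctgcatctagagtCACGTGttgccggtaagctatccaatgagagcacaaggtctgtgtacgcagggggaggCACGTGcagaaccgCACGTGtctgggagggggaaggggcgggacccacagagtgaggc
Bhlhe41 (chr6:145865421-145865670, minus strand): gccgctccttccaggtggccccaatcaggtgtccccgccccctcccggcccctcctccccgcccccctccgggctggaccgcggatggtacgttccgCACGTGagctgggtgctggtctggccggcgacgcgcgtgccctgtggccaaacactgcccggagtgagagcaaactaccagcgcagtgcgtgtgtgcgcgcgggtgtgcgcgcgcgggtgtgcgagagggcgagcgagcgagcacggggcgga
The matches began 116, 58 and 44 bases before the start site in Ciart and 153 before it in Bhlhe41. Ciart, a repressor of the loop, read 10.13, 10.11 and 10.04 at 5 months and 9.28, 9.04 and 9.19 at 24 months, 1.9-fold lower. A second, dimmer probe set of Ciart differed by -1.31.

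Nfil3 (-0.70), a repressor of clock output, Hlf (-0.65), an output activator, and Bhlhe41 (-0.64), another repressor, also passed the fold, giving 4 of 17 lower and 0 higher (median -0.43, and -0.32 in wild type). Per2 (-0.49), Per3 (-0.49), Per1 (-0.46) and the output gene Dbp (-0.48) were just under it, with no overlap of arrays. Those above 0 were all under the fold: Clock differed by 0.56, Rora, which activates Arntl, by 0.48, Arntl, which encodes BMAL1, by 0.35 and Cry2, a repressor, by 0.13. In the pool-level fit 7 clock genes fell and 3 rose, with Ciart falling by 1.06 ± 0.18 (adjusted p = 0.00352) and Clock rising by 0.52 ± 0.06 (adjusted p = 0.00103). Nr1d1 (-0.08) and Nr1d2 (-0.03), which encode the REV-ERB repressors, had small differences. Liver and adipose tissue of Myc+/- mice differed by -2.97 and -1.36 in Ciart. The sources used here do not give the hour at which mice were killed.

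Respiratory chain genes read lower in part. Ndufa1, a subunit of complex I, read 10.22, 10.21 and 10.13 at 5 months and 8.90, 9.04 and 8.94 at 24 months, 2.34-fold lower, against a difference of -1.26 in wild type. Ndufa5 (-1.05), Ndufb10 (-1.05) and Ndufb8 (-0.94) of complex I, Uqcrfs1 of complex III (-0.77) and Cox5a of complex IV (-0.74) followed. In liver of Myc+/- mice Ndufa1 and Cox5a differed by -1.42 and -0.74, and in adipose tissue by -0.01 and -0.03. Not every listed gene read lower in liver, where Atp5b differed by 0.49. Of 46 genes of oxidative phosphorylation 10 read lower, 0 higher and 36 had a difference below 0 (median -0.22, and -0.33 in wild type). Across both genotypes 27 fell and 4 rose, Ndufa1 falling by 1.24 ± 0.06 (adjusted p = 4.83e-05). Atp5l, of the ATP synthase, and Sdhaf4, an assembly factor of complex II, were among the 15 genes furthest down (-1.49 and -1.60), but Atp5l has 6 probe sets and near copies in the genome, and the other Sdhaf4 probe set differed by 0.01. Atp5l and Sdhaf4 also differed by -1.44 and -1.09 in Myc+/- liver, and by -0.20 and -0.59 in adipose tissue. Ppargc1a, the main activator of mitochondrial genes, differed by -0.07 with overlapping arrays. Among 29 genes of fatty acid oxidation and its regulators Angptl4 (0.91), which inhibits lipoprotein lipase, and Acot2 (0.65) read higher and Cpt2 (-0.66) lower. Pdk4, which blocks sugar entry into mitochondria, differed by 0.51 in Myc+/- and by -0.12 in wild type.

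Small nucleolar RNAs, many of which guide the modification of ribosomal RNA, were the genes furthest down. Snora74a read 12.05, 12.04 and 12.18 at 5 months and 9.91, 9.41 and 9.46 at 24 months, 5.63-fold lower, and Snora44 read 5.23-fold lower. Snora73b, Snora73a (-2.03), Snord15b (-1.85), Snora3, Snord15a, Snord87 and the Y RNA Rny1 (-1.48) were also among the 15 furthest down. Of the 43 kept snoRNA probe sets, a class chosen after its values had been seen, 24 read lower and 1 higher, with a median of -0.61 (-0.64 in wild type). The same probe sets had a median of -0.97 in liver and 0.21 in adipose tissue of the Myc+/- mice. Snora74a fell by 2.28 ± 0.11 in the pool-level fit (adjusted p = 4.72e-05). The labels name both a 3′ IVT and a whole-transcript labelling kit, and how either handles such short RNAs was not tested.

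Ribosomal protein genes included large differences beside many near 0. Rps29 read 12.43, 12.50 and 12.34 at 5 months and 10.88, 10.66 and 10.92 at 24 months, 3.03-fold lower, and its 4 probe sets ran from -1.74 to -1.60. It differed by -1.29 in Myc+/- liver and by 0.27 in adipose tissue, the same signs as the small nucleolar RNA medians there. A link between them was not tested. In the list of 30 cytosolic ribosomal proteins 6 read lower and 1 higher (median -0.18, and -0.15 in wild type), led by Rps19 (-1.24) and Rpl13 (-1.22, with 9 probe sets from -1.34 to -1.11), while Rplp2 read higher (0.84). These genes have many near-identical copies, so single values are uncertain. Rpl and Rps genes supplied 32 of the 99 probe sets lower at 2-fold but only 7 of the 66 symbols, since 1 gene can have many probe sets. Their share among all kept probe sets was not counted. Among 31 Myc targets and ribosome biogenesis genes 0 read higher and 1 lower, Nhp2, a core protein of box H/ACA particles (-0.71), with a median of 0.06. Ncl, or nucleolin, differed by 0.31 and Odc1, which opens polyamine synthesis, by 0.27. Proliferation genes (23) gave 0 higher and 0 lower, with Mki67, a marker of dividing cells, at 0.16. Of these genes 16 lay below the filter, where differences are compressed, and 16 had a difference above 0 (median 0.14).

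Eda2r, a TNF receptor family gene and p53 target, read 8.97, 8.87 and 8.98 at 5 months and 10.20, 10.19 and 10.37 at 24 months, 2.48-fold higher, and differed by 0.94 in wild type. It rose by 1.12 ± 0.11 in the pool-level fit (adjusted p = 0.000469). It was the 1 of 16 senescence and p53 genes that read higher. Gadd45b, a stress-induced gene, read 1.7-fold lower, and Cdkn2a, which encodes p16, differed by -0.04 with overlapping arrays at a dim level. In insulin, IGF1 and mTOR signalling 3 of 26 read higher and 1 lower: Akt2, the kinase of insulin signalling (0.73; its second probe set 0.40), Deptor, an inhibitor of mTOR (0.72), and Ghr, the growth hormone receptor (0.70), against Igfbp6, which binds IGF2 (-0.70). Akt2 read 12.14, 12.19 and 12.17 at 5 months and 12.91, 12.90 and 12.87 at 24 months, and all 4 genes passed the pool-level fit in the same direction (limma, adjusted p = 0.000243 to 0.00141). Igf1 differed by 0.03 in Myc+/- and by 0.45 in wild type. Meg3, a maternally expressed noncoding RNA, read 9.40, 9.45 and 9.48 at 5 months and 8.34, 8.15 and 8.55 at 24 months, 2.14-fold lower, whereas the paternally expressed Nnat (0.89) and Peg3 (0.79) read higher. They were the 3 of 15 imprinted growth genes past the fold.

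In the remaining pathway lists few members passed. Of 21 antioxidant and metallothionein genes 0 read higher and 3 lower, the zinc-binding Mt1 (-0.84), Mgst1 (-0.75) and Hmox1, or heme oxygenase (-0.63). Of 15 chaperone genes Chordc1 read higher (0.71) and Hspb1, a small heat shock protein of muscle, lower (-0.66). Of 18 autophagy and lysosome genes Ctsl, or cathepsin L, read higher (0.63) and Map1lc3a lower (-0.75). Hsd17b7 (0.85) was the 1 of 16 cholesterol synthesis genes higher, with 0 lower. Gpd1 (0.94), which links sugar to glycerol lipids, was the 1 of 21 glycolysis and glycogen genes higher, with 0 lower. Calcium handling gave 0 of 22 in either direction. Among other cell types, 1 of 14 endothelial genes read higher (Cldn5, 0.69), smooth muscle had 1 higher and 1 lower of 11 (Cnn1, 0.80, and Cspg4, -0.70), Schwann cell and myelin 0 of 10 and erythroid 0 of 4. Of 9 brown adipocyte genes Elovl3 (1.24) read higher and Cox8b (-0.60) lower, while Ucp1, the defining one, was dim and differed by -0.09. Elovl3 lay below the filter too, and is the same gene counted among the lipid synthesis genes that read higher.

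Liver genes were measured in muscle and ran in opposite directions in the genotypes. Alb, or albumin, read 9.50, 9.28 and 9.14 at 5 months and 11.11, 11.24 and 11.06 at 24 months, 3.55-fold higher, while wild type muscle went from 10.94 to 8.78. Of 19 hepatocyte genes 6 read higher and 0 lower in Myc+/- muscle (median 0.46), against 0 higher and 18 lower in wild type (median -1.63). Mean list levels were 6.68 to 6.77 on young and 7.20 to 7.30 on old Myc+/- arrays, and 7.87 to 7.95 and then 6.05 to 6.21 in wild type. In the pool-level fit 0 of the 8 kept members passed. Albumin stood at 14.43 and 14.82 in the 5- and 24-month Myc+/- livers. The source of these hepatocyte transcripts was not tested.

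**Figure D4:**
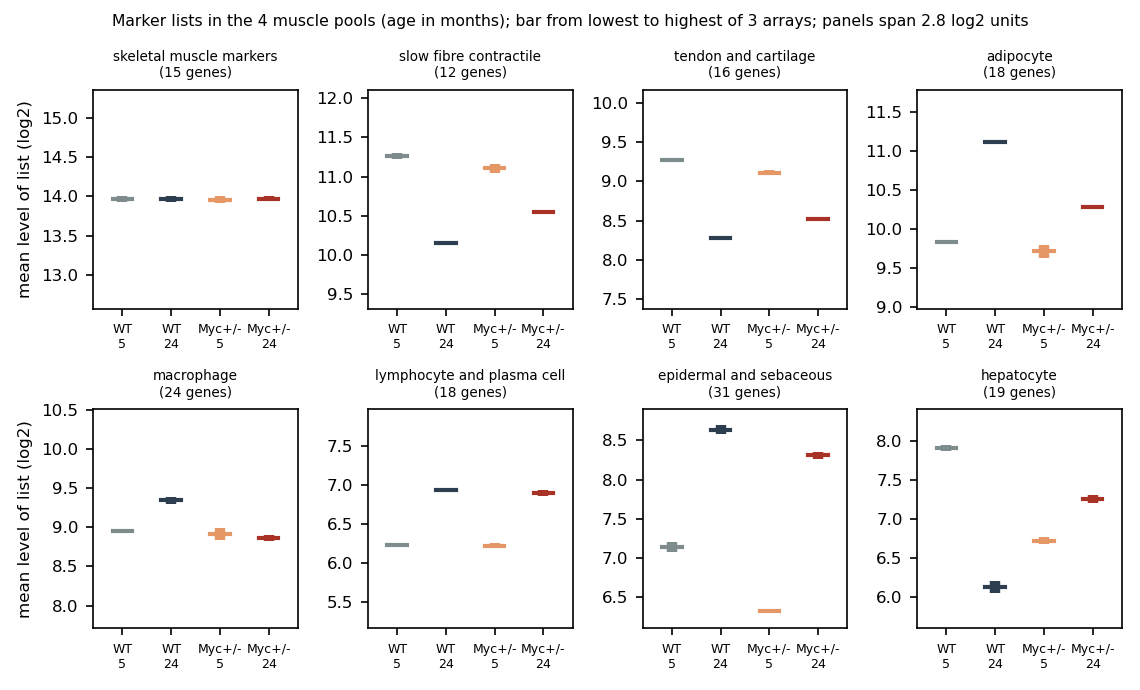
Mean log2 level of 8 gene lists in the 4 muscle pools (WT, wild type; ages in months), with a bar from the lowest to the highest of 3 arrays and a short line at its middle. Skeletal muscle markers stood level, adipocyte genes reached 10.26 to 10.30 in old Myc+/- and 11.10 to 11.13 in old wild type muscle, and hepatocyte genes ran in opposite directions in the genotypes.

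The age difference of Myc+/- muscle was set against that of wild type muscle, which shares no pool or mouse with it. Across the kept probe sets the differences correlated at 0.84 (Pearson; Spearman 0.85), as a description across genes, which are not independent. In wild type 769 (5.88%) read higher and 632 (4.83%) lower. Of these, 441 read higher in both genotypes (76.3% of the Myc+/- list and 57.3% of the wild type list) and 390 lower in both (75.9% and 61.7%). Past the fold, 5 read higher in Myc+/- and lower in wild type, and 1 the other way. The size of the difference was smaller in Myc+/- for 55.9% of kept probe sets, with a median size of 0.19 against 0.22.

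**Figure D5:**
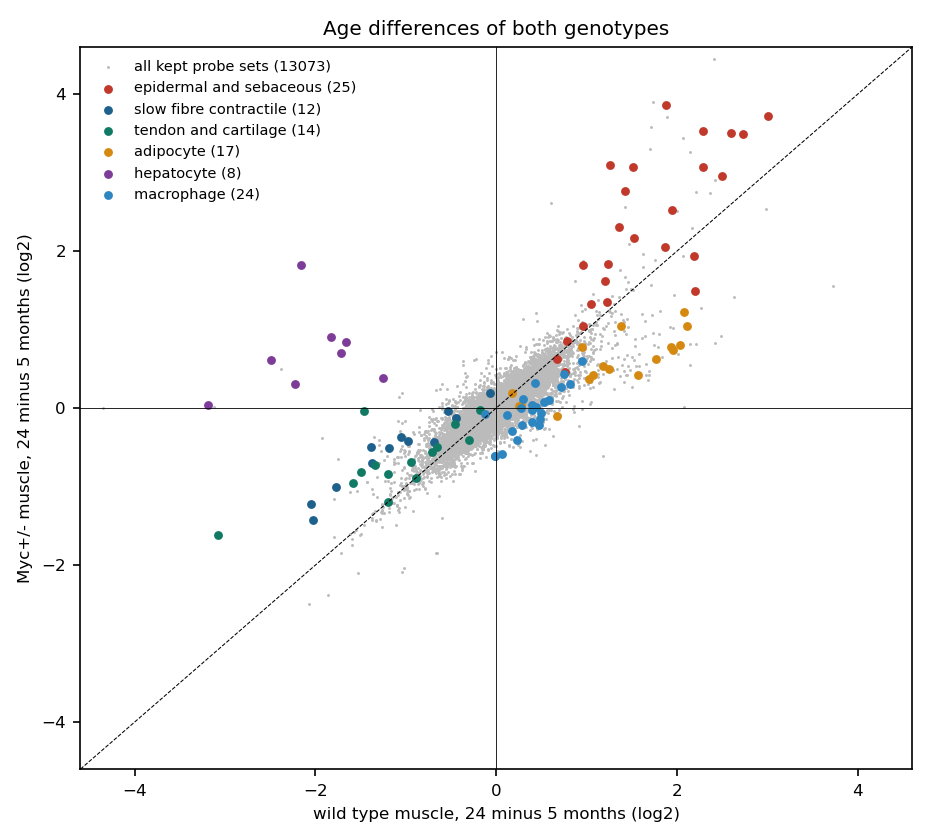
Age difference (24 minus 5 months, log2) of each kept probe set in wild type muscle (horizontal) and Myc+/- muscle (vertical), with members of 6 lists coloured; the dashed line is equality. Adipocyte, macrophage and slow fibre genes lie nearer 0 on the Myc+/- axis, epidermal genes mostly above the line, and hepatocyte genes at the upper left.

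A change with age that was unlike in the genotypes, by 1.5-fold or more and past the technical error of the arrays, was measured for 102 probe sets (0.78%) more positive in Myc+/- and for 151 (1.16%) more negative (limma on the 36 arrays, adjusted p). That test compares 4 RNA mixtures and cannot show that the genotypes differ as populations. The 8 named genes most on the positive side are all genes made chiefly by liver: Serpina1c (4.35), Alb (3.99), the apolipoprotein Apoa2 (3.23), the urinary protein Mup3 (3.13), Ahsg (3.10), Pzp (2.88), the fibrinogen chain Fgb (2.74) and the thyroxine carrier Ttr (2.53). Serpina1c and Mup3 have near-identical copies and are uncertain. On the negative side stood the antibody segment Igkv6-20 (-2.17), Ccl8 (-2.06), the interferon-induced Ifi27l2a (-1.79), Klb (-1.60), which is the co-receptor of FGF21, B3galt2 (-1.59), Ces1f (-1.57), the mitochondrial carbonic anhydrase Car5b (-1.39) and the protein kinase A subunit Prkar2b (-1.33). In 5-month Myc+/- mice B3galt2, Car5b and Prkar2b stood at 11.92, 12.54 and 12.66 in adipose tissue and at 5.73, 7.95 and 5.95 in liver. Ces1f stood at 10.63 and 12.87, and Klb at 9.80 and 10.23. How far fat cells in the muscle pools carried these genes was not tested. Ifi27l2a read 8.65, 8.99 and 9.00 at 5 months and 8.41, 8.11 and 8.28 at 24 months in Myc+/- muscle, a difference of -0.61, and differed by 1.18 in wild type. Klb read 1.77-fold higher in Myc+/- muscle and differed by 2.42 (log2) in wild type.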

How the data were processed

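RNA from mouse liver, skeletal muscle and adipose tissue was measured on 36 Affymetrix Mouse Gene 1.0 ST arrays, 3 technical arrays for each of 12 pools, of which 4 pools were muscle. The deposited values are log2 signals made by the authors with Affymetrix Expression Console and RMA (versions not given in the sources used here), per the submitters' processing notes, and were used unchanged. The labels name conflicting labelling kits. Probe sets were named from the platform annotation: 21789 had 1 symbol, 1621 several and 12146 none here, and 21695 of the 21789 matched the RefSeq table by Entrez number. Probe sets with a muscle mean above the 40th percentile (6.91, log2) were kept for counts and fits, and a gene with several probe sets is represented by the brightest. The comparison is the difference of the means of 3 arrays, with a threshold of 1.5-fold. The number of pools and arrays limits the precision.

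Models were fitted in R 4.3.3 with limma 3.58.1 and Benjamini-Hochberg adjustment over all kept probe sets at 0.05: one on the 12 pool means, without replicates within a group, for the age effect averaged over genotypes, and one on the 36 arrays for the difference of age differences, whose error is technical. The fits were tested on simulated data. The alternatives were another fold, other filters, repeated quantile normalization, median centring, leaving out an array and the replicate number as a block. The text names the 15 genes furthest in each direction, up to 6 leading members per list, members whose role is explained, the 8 genes per direction that differed most between genotypes, and leaders of the pool-level fit. The members and lists were chosen with earlier results of these data known, and no list count is independent support.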

Additional observations from a re-analysis of the deposited data

Results flagged for a closer look

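For the genes below, the age difference in Myc+/- muscle differed from that in wild type muscle by an interaction term (limma on arrays, adjusted p under the threshold) and by at least 1.5-fold. The error in that test is between technical arrays of 1 pool per group, so it says nothing of the spread between mice. Values are Myc+/- minus wild type age differences (log2), and no explanation was tested. Genes made chiefly by liver stood furthest on the positive side: Serpina1c (4.35), Alb (3.99), Apoa2 (3.23), Mup3 (3.13), Ahsg (3.10), Pzp (2.88), Fgb (2.74) and Ttr (2.53). Named skin genes that were more positive in Myc+/- muscle were: Dapl1 (2.16), Lce1a1 (1.99), Lce1c (1.87), Lor (1.84), Crct1 (1.82), Scd3 (1.56), Ly6g6c (1.38), Krt77 (1.24), Krt5 (0.90), Ly6d (0.87), Serpina3b (0.76) and Elovl4 (0.72). Slow fibre genes that read lower with age in both genotypes, but by less in Myc+/-, were: Tnni1 (0.89), Tnnc1 (0.83), Myl3 (0.77), Myh7 (0.69), Tpm3 (0.68), Tnnt1 (0.67) and Myl2 (0.60). Single genes of tendon and matrix that read lower by less in Myc+/- were: Chad (1.46), Tnmd (0.68), Comp (0.63) and Col12a1 (0.60). Also more positive were single genes of other lists: Trim63 (0.65) and Pdk4 (0.62). Antibody genes lay on both sides: Igkv10-96 (2.03), Igha (1.12) and Igkv6-20 (-2.17). Klb and single genes of adipocytes and lipid metabolism were more negative: Klb (-1.60), Adipoq (-1.24), Tshr (-1.07), Retn (-0.85), Fabp4 (-0.77), Acaca (-0.77) and Angptl4 (-0.74). Single chemokine, macrophage, complement and interferon-induced genes were more negative: Ccl8 (-2.06), Ifi27l2a (-1.79), Cxcl13 (-0.99), Ccl5 (-0.88), C4b (-0.91), Fcer1g (-0.60) and Cd68 (-0.60). Of the named small nucleolar RNAs, whose class medians were -0.61 in Myc+/- and -0.64 in wild type, the more negative were: Snora3 (-1.20), Snora73b (-1.04) and Snora73a (-1.02). The remaining genes so marked were B3galt2 (-1.59), Ces1f (-1.57), Car5b (-1.39), Prkar2b (-1.33) and Nnat (-0.72). Of these, B3galt2, Car5b and Prkar2b stood higher in adipose tissue than in liver of the Myc+/- mice.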

How the results depend on the processing

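The number past the fold moved most with the fold itself: at least 2-fold left 119 probe sets higher and 99 lower, in place of 578 and 514. Without a filter on low values 203 probe sets, in place of 102, had a more positive age difference in Myc+/- than in wild type. Leaving out 1 array in turn gave 569 to 639 higher and 487 to 597 lower, and 86 to 111 more positive and 131 to 175 more negative than in wild type. Same-numbered arrays of the 2 Myc+/- muscle pools had deviations that correlated at 0.059, 0.037 and 0, so the numbers do not pair them. Those of the 24-month Myc+/- and wild type pools, which enter the comparison of genotypes, correlated at 0.223, 0.486 and 0.163 and so vary together by number. With the replicate number as a block the counts between genotypes were 103 and 152, and it moved no count of calls by over 1.5 times. Of the 194 named genes, 134 were past the fold, and 0 of these reversed under any setting run. Changes of sign were not counted for genes under the fold. Of the 134 past the fold, 19 dropped under it when 1 array was left out: Acot2, Ahsg, Bhlhe41, C4b, Cd53, Cd68, Cox8b, Ctsl, Fcer1g, Hdac4, Hlf, Hmox1, Ifi27l2a, Lgr5, Myl4, Myod1, Psmb10, Serpina3n and Tnnt1. C4b, Hdac4 and Serpina3n also did so with repeated quantile normalization, and B3galt2, Clock and Tpm3 passed the fold under some setting. Median centring moved no list median across 0, and dropping the dim members did so for 1 of 41 lists, brown adipocyte. Differences of dim genes are compressed by background signal, whose level the log2 values do not give.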
